A study of Mus musculus with 2 samples.

Results

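The genes described here are 9 genes of skeletal muscle, chosen by symbol from the 32285 genes counted: Pax7, Myf5 and Chodl of muscle stem cells, Myod1 and Myog of commitment to muscle, and Dmd, Acta1, Ckm and Ttn of the muscle fibre. They were measured in 2 single-cell RNA-seq (scRNA-seq) libraries of the temporomandibular joint (TMJ), the hinge of the jaw, from C57BL/6 mice aged 8 to 10 weeks whose joints had been injected with complete Freund's adjuvant (CFA), an emulsion that causes arthritis. One library came from wild-type (WT) mice and the other from Prox1 mutant mice, which the study describes as heterozygous (Prox1+/-) and uses as a model of impaired lymphatics. No restriction of the mutant allele to lymphatic vessels is given, no library of an uninjected joint was analysed here, and how many mice gave each library is not given in the sources used here.

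With 1 library per genotype no difference between genotypes has a replicate check, and no p-value was computed. The unit is the unique molecular identifier (UMI), 1 tagged RNA molecule, and a level is given in CPM, a gene's UMIs for every 1000000 UMIs counted in the cells named. Values in parentheses after a level, a share or a ratio are 95% intervals that cover counting error only, not the spread between cells, mice or libraries. The WT library held 4352 cells and the mutant library 5757 cells that passed the study's filters, a minimum of 500 genes and a mitochondrial share below 10%. Median depth was 6997 UMIs for WT cells and 4848 for mutant cells, and 4 barcodes were shared by the kept cells of both libraries. Prox1, the mutated gene, was counted at 11.6 CPM (10.7 to 12.6) over all kept WT cells and at 5.80 CPM (5.18 to 6.47) over all kept mutant cells. A count of 3' ends does not show whether an allele is intact.

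Satellite cells are the stem cells of skeletal muscle. They lie between a fibre and its sheath, carry the transcription factor Pax7 while quiescent, and switch on Myod1 and then Myog as their progeny commit, exit the cell cycle and fuse into fibres. A fibre is a long multinucleate cell that cannot enter a droplet whole, so its abundant transcripts, such as skeletal actin (Acta1) and muscle creatine kinase (Ckm), are known in digested tissue as RNA freed from broken fibres. Dmd encodes dystrophin, which ties the actin skeleton of muscle to the matrix outside the cell.

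Clustering with the 9 genes left out gave 44 clusters, of which 30 received 1 of 17 cell type names from marker genes and 14 stayed unnamed. The unnamed clusters held 27.4% of WT and 38.6% of mutant cells. Some of them did raise markers, such as a cluster of 274 WT and 145 mutant cells with all 7 endothelial markers raised. A named type may therefore lack cells of its kind. Joint tissue was present by its markers, with 29 WT and 105 mutant chondrocyte-like cells and 27 and 22 osteoblast-like and osteocyte-like cells. The mix of cells differed between the libraries, in both directions. An unnamed cluster led by Hba-a2 held 14 WT and 692 mutant cells, adipocytes numbered 7 and 176, and endothelial cells 771 and 376. A share of kept cells depends on these numbers too. Since the names were rebuilt here from markers, shares may differ from those of the study for that reason alone. A single cluster was named satellite-like, with all 8 of its markers raised (Cdh15, Itga7, Calcr, Fgfr4, Chrdl2, Megf10, Musk and Des). It held 89 of 4352 kept cells in WT, 2.05% (1.65 to 2.51), and 35 of 5757 in the mutant, 0.608% (0.424 to 0.845). Of cells in named clusters it was 2.82% in WT and 0.991% in the mutant. These cells were of like depth, with a median of 7008 UMIs (lowest 870, highest 22347) in WT and 6657 (lowest 3412, highest 13646) in the mutant. No cluster took the name muscle fibre, which had 12 markers, in the main clustering or in any of the 6 alternative clusterings.

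Pax7 and Myf5 are shown first by their start regions, because these genes were counted together in the satellite-like cells. Pax7 lies on chromosome 4 (139737062 to 139833528, minus strand) and Myf5 on chromosome 10 (107482908 to 107486134, minus strand) of GRCm38 in GENCODE M21. The windows below run from 250 bases before to 50 bases after the start in RefSeq (GRCm38.p6), chr4:139832919-139833218 and chr10:107486085-107486384, both on the minus strand and printed 5′ to 3′.
Pax7: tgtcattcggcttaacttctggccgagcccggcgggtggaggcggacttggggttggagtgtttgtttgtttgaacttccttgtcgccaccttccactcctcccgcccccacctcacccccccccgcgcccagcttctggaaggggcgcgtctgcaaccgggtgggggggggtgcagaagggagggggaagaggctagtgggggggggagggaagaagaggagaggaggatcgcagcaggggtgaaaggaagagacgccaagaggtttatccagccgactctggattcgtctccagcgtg
Myf5: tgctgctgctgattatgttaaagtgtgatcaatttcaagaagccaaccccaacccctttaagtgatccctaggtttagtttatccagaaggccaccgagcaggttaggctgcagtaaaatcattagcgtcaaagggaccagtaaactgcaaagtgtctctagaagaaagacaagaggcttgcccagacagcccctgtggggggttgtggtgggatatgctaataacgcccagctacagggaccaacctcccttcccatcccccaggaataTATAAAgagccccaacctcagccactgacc
Capitals mark matches to 4 motifs searched on both strands: the E-box CANNTG bound by Myf5, Myod1 and Myog, the letters TATAAA of a TATA box, the CArG box of serum response factor and the MEF2 site. Among the 32851 promoter windows of the same length, 72.3% held an E-box, 13.6% TATAAA, 1.63% a CArG box and 3.19% a MEF2 site. The Pax7 window held no match to any of the 4, and the Myf5 window held TATAAA once. A match is a description of letters, not a binding site. Windows were found for 8 of the 9 genes, all but Myod1.

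Pax7 was carried by nearly every satellite-like cell of both libraries and by few other cells. In WT it was counted 478 times, in 88 of 89 cells, at 735 CPM (671 to 804), and in the mutant 300 times, in 35 of 35 cells, at 1197 CPM (1066 to 1341). Single cells ranged from 0 to 16 UMIs with a median of 5 in WT, and from 1 to 30 with a median of 7 in the mutant, so the cells of both libraries overlapped over most of their range. All other kept cells together held 25 Pax7 UMIs in WT and 47 in the mutant, 0.524 and 0.869 CPM. The log2 ratio of satellite-like to other cells was 10.45 (9.88 to 11.10) in WT, close to the 10.43 (9.98 to 10.90) of the mutant. Satellite-like cells thus held 95.03% of the Pax7 UMIs of kept WT cells and 86.5% of those of kept mutant cells. Endothelial cells, which should lack the gene, had a Pax7 UMI in 0.130% of 771 WT cells (median 4423 UMIs) and 0.266% of 376 mutant cells (median 5868.5 UMIs). After each cell had been thinned to 2000 UMIs, Pax7 was still counted in 63.5% of 85 WT and 77.1% of 35 mutant satellite-like cells, against 0.141% of 708 WT and 0 of 375 mutant endothelial cells. Among types and clusters with at least 20 cells, Pax7 was highest in satellite-like cells of both libraries, and its interval did not overlap that of the next, which had 21.5 CPM (WT) and 14.2 CPM (mutant). Of the 3 WT cells named gland and airway epithelial, 2 held 10 Pax7 UMIs.

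**Figure D1:**
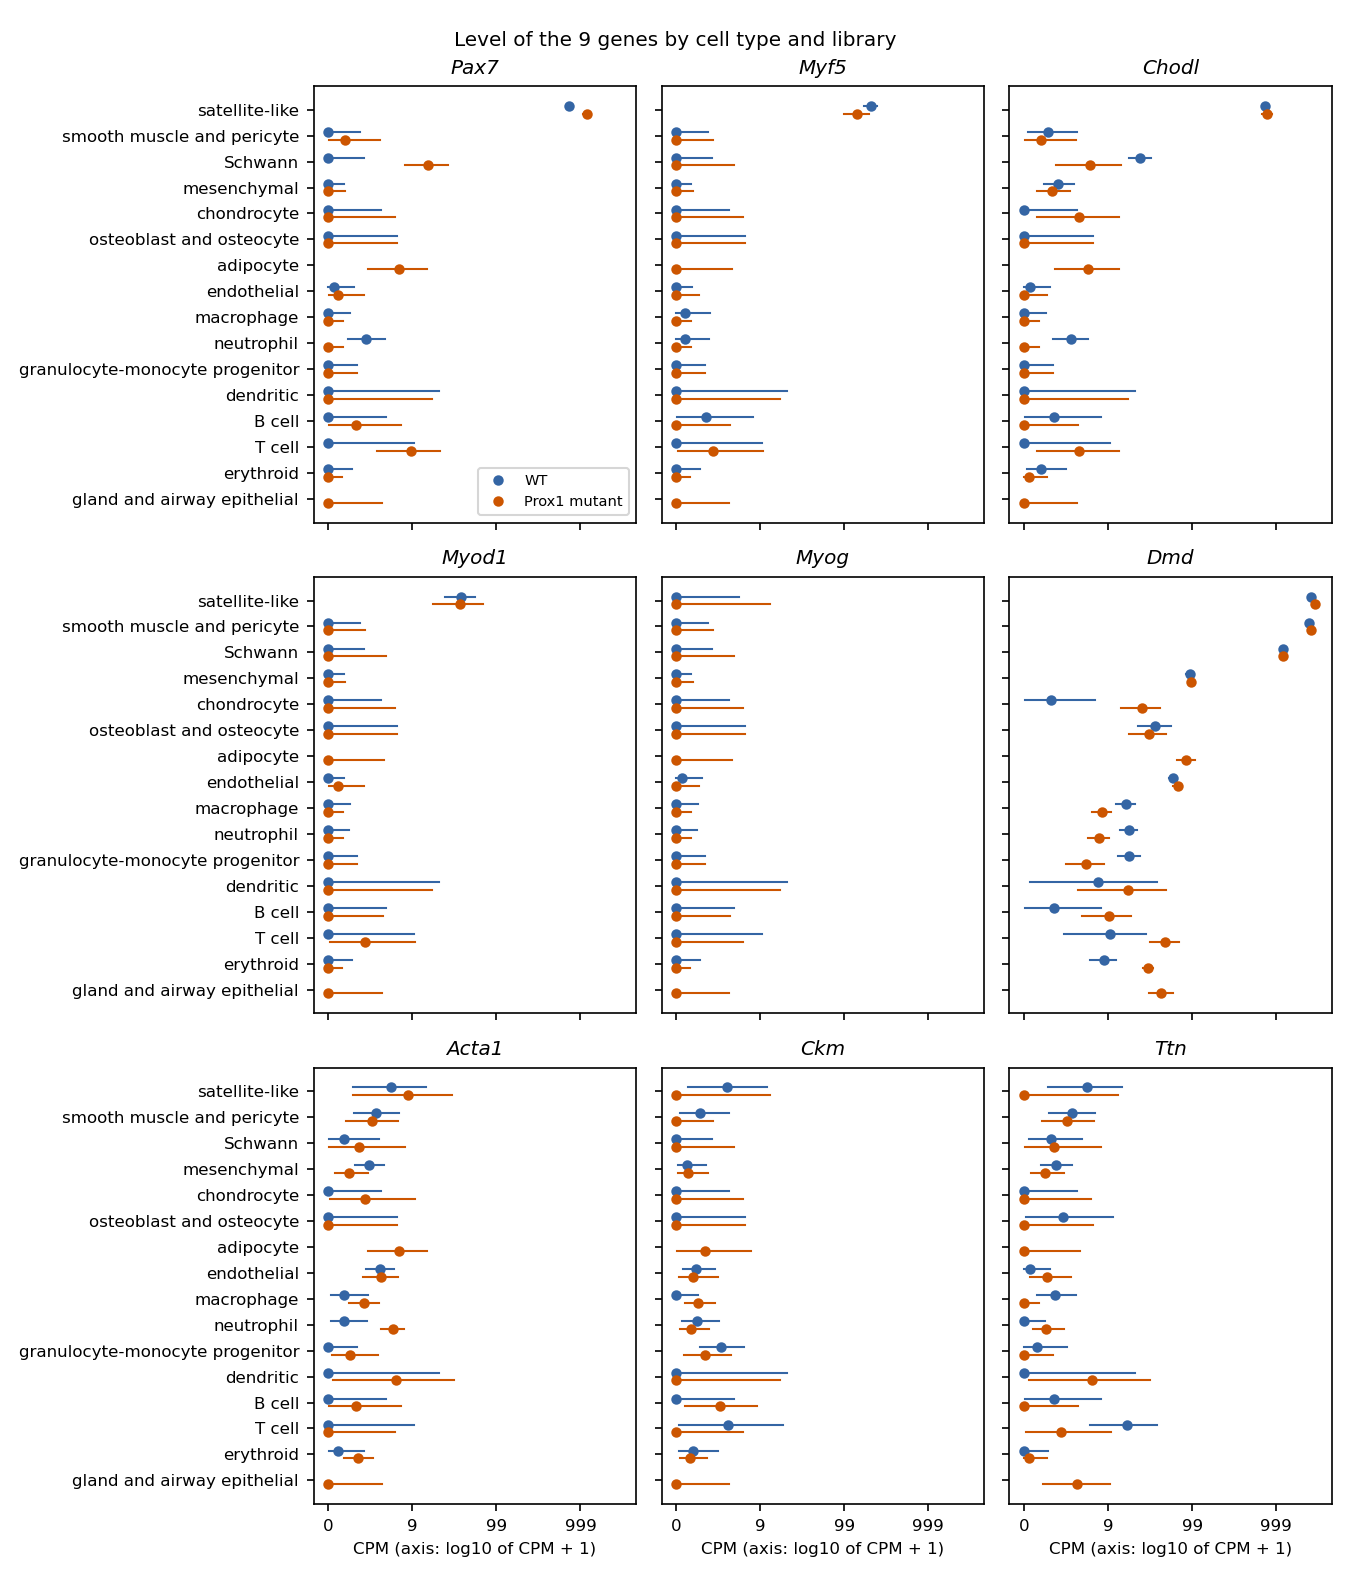
Level of each of the 9 genes (CPM, drawn as log10 of CPM + 1) in the named cell types with at least 20 cells, in WT (blue) and the Prox1 mutant (orange); lines are 95% Poisson intervals and, for a gene at 0, reach to the level of 3 UMIs. Pax7, Myf5, Chodl and Myod1 stand apart in satellite-like cells, Dmd is also high in smooth muscle and pericyte and in Schwann cells, and Acta1, Ckm and Ttn lie at low levels in every type drawn.

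Myf5, the transcription factor that acts earliest in the muscle programme, followed Pax7 in place but at a lower level. Satellite-like cells held 133 Myf5 UMIs in WT, 205 CPM (171 to 242), in 58 cells, and 35 UMIs in the mutant, 140 CPM (97.3 to 194), in 17 cells. The highest cell had 9 UMIs in WT and 7 in the mutant, and the median cell 1 and 0. Only 4 Myf5 UMIs lay outside satellite-like cells in WT and 5 in the mutant, so that these cells held 97.1% and 87.5% of the gene. Both transcription factors were counted in 57 of 89 WT cells and 17 of 35 mutant cells, Pax7 without Myf5 in 31 and 18, Myf5 without Pax7 in 1 and 0, and no satellite-like cell lacked both. At 2000 UMIs per cell the share with Myf5 was 23.5% in WT and 17.1% in the mutant. Unthinned endothelial cells had Myf5 in 0 of 771 WT and 0 of 376 mutant cells, which allows shares of up to 0.389% and 0.798%.

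Chodl, which encodes chondrolectin, a membrane protein with a lectin domain, was counted in nearly every satellite-like cell but was less restricted to these cells than Pax7. It was counted 482 times in 85 WT cells, 741 CPM (677 to 811), and 194 times in 33 mutant cells, 774 CPM (669 to 891). The median cell had 5 UMIs and the highest 17 in both libraries. Pax7 and Chodl were found together in 84 of 89 WT cells and 33 of 35 mutant cells. At 2000 UMIs per cell, 69.4% of WT and 77.1% of mutant satellite-like cells kept a Chodl UMI. Unthinned endothelial cells had one in 1 of 771 WT and 0 of 376 mutant cells. Satellite-like cells held 56.2% of all Chodl UMIs in WT and 61.4% in the mutant, a smaller share than for Pax7 and Myf5.

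The other Chodl came mostly from a few droplets of 1 unnamed cluster led by the matrix and tendon-related genes Tnn, Fmod and Postn. There it reached 123 CPM (109 to 137) in WT, 295 UMIs in 16 of 171 cells with 98 in the highest, and 58.7 CPM (47.0 to 72.4) in the mutant, 87 UMIs in 9 of 105 cells with 51 in the highest. This cluster was second to satellite-like cells in both libraries and its intervals overlapped neither the level above nor the level below. In WT Schwann cells 42 Chodl UMIs came from 2 cells, 34 of them from 1.

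**Figure D2:**
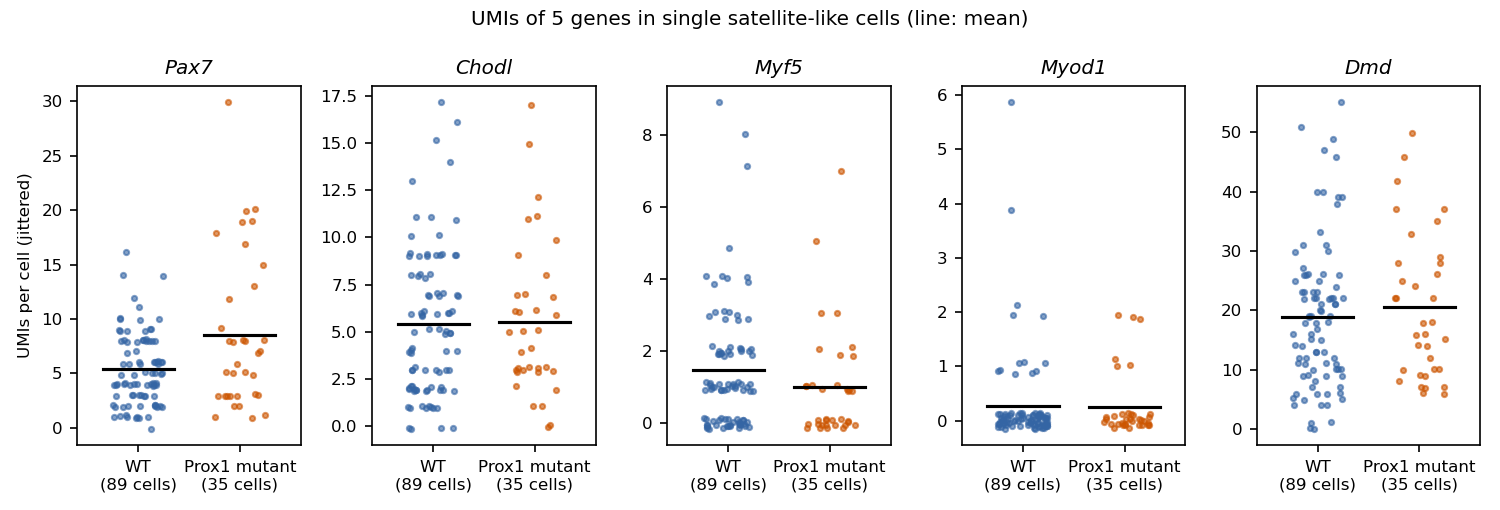
UMIs of Pax7, Chodl, Myf5, Myod1 and Dmd in each of the 89 WT and 35 mutant satellite-like cells (points, slightly jittered), with the mean as a black line. Cells of both libraries overlap for every gene, and the highest Pax7 cell holds 30 UMIs in the mutant and 16 in WT.

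Commitment genes were rare. Myod1, the factor that marks activated and committing progeny, was counted in 13 of 89 WT satellite-like cells, 14.6% (8.01 to 23.7), and in 6 of 35 mutant cells, 17.1% (6.56 to 33.6). That was 24 UMIs and 36.9 CPM (23.7 to 54.9) in WT and 9 UMIs and 35.9 CPM (16.4 to 68.2) in the mutant, with up to 6 and 2 UMIs in a cell. Every one of these cells also carried Pax7, as did 88 of the 89 WT and all 35 mutant satellite-like cells, so this does not set them apart. The WT cells with Myod1 had a median of 7790 UMIs and those without it 6696, and the mutant ones 8542 and 6219. At 2000 UMIs per cell the share was 4.71% in WT and 0 of 35 cells in the mutant, and the latter allows a share of up to 8.57%. With cells thinned to 1000 UMIs instead, it was 2.27% of 88 WT cells and 2.86% of 35 mutant cells. Among endothelial cells Myod1 was counted in 0 of 771 WT cells and 1 of 376 mutant cells. Myog, the factor of terminal differentiation, was at 0 in the satellite-like cells of both libraries, which allows a share of cells with a UMI of up to 3.37% in WT and 8.57% in the mutant.

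Outside satellite-like cells Myod1 was at 0 in WT and at 11 UMIs in 10 mutant droplets, so that only 45.0% of the mutant Myod1 lay in satellite-like cells. Myog was counted once in WT, in an endothelial droplet, and 5 times in the mutant. All 5 of these and 7 of the Myod1 UMIs fell in an unnamed cluster of shallow droplets led by the immunoglobulin genes Igkc and Igha and the platelet gene Pf4, which held 23 WT and 295 mutant cells with medians of 1673 and 1288 UMIs. In its mutant droplets Myod1 or Myog was counted in 10, both in 2, and either beside Acta1, Ckm or Ttn in 2. The same droplets held no Myf5, 6 Pax7 UMIs in 4 droplets and 1 Chodl UMI.

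Few droplets outside the satellite-like cluster carried at least 2 of the stem genes Pax7, Myf5 and Chodl: 2 in WT, with a median of 30447.5 UMIs, and 8 in the mutant, with a median of 9809.5. A WT droplet in a neutrophil cluster held 7 Pax7, 1 Myf5, 9 Chodl and 38 Dmd UMIs of 41191 in all, and 7 of the 8 satellite markers. A mutant droplet in a Schwann cluster held 11 Pax7, 4 Chodl and 9 Dmd UMIs, which was all the Pax7 of mutant Schwann cells, and one in a T cell cluster held all 5 Pax7 UMIs of mutant T cells. At least 3 satellite markers were present in both WT droplets and in 3 of the 8 mutant ones. Doublets had not been removed.

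Dmd, in contrast, was shared by several cell types. Among the named types satellite-like cells had the highest level in both libraries, 2594 CPM (2471 to 2720) in WT from 1686 UMIs in 87 of 89 cells, and 2866 CPM (2660 to 3083) in the mutant from 718 UMIs in 35 of 35 cells. Their median was 18 UMIs in both libraries, with a range of 0 to 55 for WT and 6 to 50 for mutant cells. Smooth muscle and pericyte cells, the contractile cells of vessel walls, came next with 2438 CPM (2373 to 2504) in WT, while the mutant library had 2561 CPM (2487 to 2637). The intervals of these highest types overlapped in WT and did not in the mutant, where the largest smooth muscle and pericyte cluster taken alone had 2910 CPM (2819 to 3003), above satellite-like cells with an overlapping interval. Schwann cells, the glia of nerves, followed with 1192 CPM (1143 to 1243) and 1204 CPM (1128 to 1284). The shallow unnamed cluster led by Igkc followed with 543 and 511 CPM, and no other type or cluster with at least 20 cells exceeded 115 CPM.

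Because smooth muscle, pericyte and Schwann cells were more numerous, satellite-like cells held only 15.8% of the Dmd UMIs of kept WT cells and 8.70% of those of kept mutant cells. The share of cells with a Dmd UMI at 2000 UMIs per cell was 96.5% and 100% in satellite-like cells, 10.9% and 10.7% in endothelial cells and 0.319% and 2.81% in neutrophils, in WT and the mutant respectively. Before thinning it was 97.8% and 100%, 23.1% and 26.3%, and 3.34% and 6.37%, and neutrophils had a median depth of 5911 (WT) and 5406 (mutant) UMIs. Mesenchymal cells had 92.2 and 96.0 CPM and endothelial cells 57.8 and 66.2 CPM.

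The Dmd level also differed between clusters of 1 name. The largest smooth muscle and pericyte cluster had a WT level of 2572 CPM (2495 to 2650) and a mutant level of 2910 CPM (2819 to 3003), and the next had 2070 CPM (1950 to 2195) and 1672 CPM (1541 to 1812). Another such cluster held 1 WT cell, and its 31 mutant cells had 83.9 CPM (27.2 to 196). Among Schwann cells the larger cluster had 1044 and 1124 CPM and the smaller 1488 and 1746 CPM. Dmd lies on chromosome X (82948870 to 85206141, plus strand) and spans 2257 kb, of which exons cover 1.05%. Whether intronic reads were counted is not stated, and isoforms cannot be told apart in these counts.

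**Figure D3:**
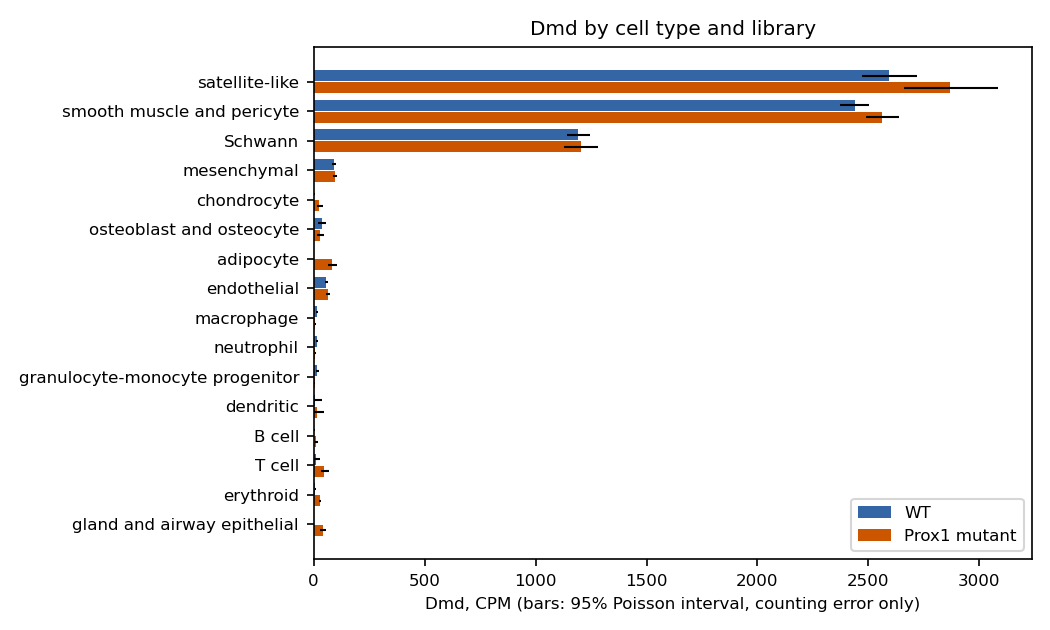
Dmd level (CPM, linear axis from 0) by named cell type in WT (blue) and the Prox1 mutant (orange), with 95% Poisson intervals that cover counting error only, for types with at least 20 cells in a library. Satellite-like cells (2594 and 2866 CPM) and smooth muscle and pericyte cells (2438 and 2561 CPM) are highest, Schwann cells follow (1192 and 1204 CPM), and all other types lie under 100 CPM.

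Acta1, Ckm and Ttn differed from the stem genes in where they were counted, and Ttn differed in part from Acta1 and Ckm. Acta1 encodes skeletal actin, Ckm the creatine kinase that buffers the energy of contraction, and Ttn titin, the giant spring of the sarcomere. The start regions of Acta1 (chromosome 8, 123891769 to 123894751, minus strand) and Ckm (chromosome 7, 19404776 to 19422841, plus strand) are shown because both genes were counted together in the same few droplets. The windows are chr8:123894726-123895025 on the minus strand and chr7:19410844-19411143 on the plus strand (RefSeq, GRCm38.p6), marked as above.
Acta1: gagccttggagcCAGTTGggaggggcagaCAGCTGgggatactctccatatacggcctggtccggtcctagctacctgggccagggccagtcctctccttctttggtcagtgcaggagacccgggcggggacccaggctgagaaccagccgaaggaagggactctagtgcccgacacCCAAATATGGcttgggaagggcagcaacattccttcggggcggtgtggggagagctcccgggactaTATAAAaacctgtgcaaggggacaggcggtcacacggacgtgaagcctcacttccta
Ckm: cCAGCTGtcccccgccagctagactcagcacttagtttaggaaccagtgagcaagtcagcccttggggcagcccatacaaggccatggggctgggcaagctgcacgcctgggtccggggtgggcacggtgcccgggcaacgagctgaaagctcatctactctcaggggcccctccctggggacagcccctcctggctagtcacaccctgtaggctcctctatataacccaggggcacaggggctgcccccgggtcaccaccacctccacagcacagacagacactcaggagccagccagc
The Acta1 window held 2 E-boxes, 1 TATAAA and 1 CArG box, which do not overlap each other, and the Ckm window held 1 E-box.

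In satellite-like cells Acta1, Ckm and Ttn were near their floor. Acta1 was counted 3 times in WT and 2 times in the mutant, Ckm 2 and 0 times and Ttn 3 and 0 times. Any of the 3 was found in 7 of 89 WT cells, 7.87% (3.22 to 15.5), and in 2 of 35 mutant cells, 5.71% (0.700 to 19.2), never with more than 2 UMIs in a cell. Together they reached 12.3 CPM (5.31 to 24.2) in WT and 7.98 CPM in the mutant, against 7.06 and 8.10 CPM in all other kept cells. The log2 ratio of satellite-like to other cells for the 3 genes was 0.80 (-0.42 to 1.80) for WT and -0.02 (-3.07 to 1.84) for the mutant. Without droplets that carry at least 5 of 12 muscle fibre markers, the other kept cells had 1.95 CPM (1.57 to 2.39) for WT and 3.35 CPM (2.88 to 3.87) for the mutant. The WT interval of satellite-like cells then lay above that of the other cells, and the mutant one, from 0.967 to 28.8 CPM, overlapped it. The same ratio for the 3 stem genes was 7.63 (7.46 to 7.80) for WT and 9.36 (9.11 to 9.61) for the mutant.

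Most Acta1 and Ckm RNA, but not most Ttn RNA, sat in a small number of droplets. A droplet with at least 5 of the 12 muscle fibre markers, a set that holds none of the 9 genes, is called a fibre droplet here, and there were 7 in WT, of which 5 were kept cells, and 23 in the mutant, of which 6 were kept. Acta1 was present in all of them, Ckm in 5 of 7 and 20 of 23, and Ttn in 3 of 7 and 8 of 23. They held 82.6% of all Acta1, 65.3% of all Ckm and 23.7% of all Ttn in WT, and 66.6%, 55.7% and 24.6% in the mutant, counted over all barcodes. The richest WT droplet had 105 Acta1, 45 Ckm and 6 Ttn UMIs of 1987 in all, and the richest mutant droplet 97 Acta1, 18 Ckm and 0 Ttn of 1028.

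No stem gene was counted in these few droplets, which had medians of 5539 UMIs in WT and 1751 in the mutant. Pax7, Myf5, Chodl and Myog were each found in 0 of the 7 WT and 0 of the 23 mutant fibre droplets, and Myod1 in 0 and 2. Among all kept cells but satellite-like ones, only 0.141% of WT and 0.332% of mutant cells had Pax7. For Myf5 these shares were 0.0938% and 0.0524%, and for Chodl 0.774% and 0.629%. Counts of 0 in so few droplets therefore do not set them apart from other cells. Dmd, although a fibre gene by name, was found in 1 WT fibre droplet, which lay among smooth muscle and pericyte cells and held 53 Dmd UMIs, and in none of the mutant ones. For every 100 Acta1 UMIs the fibre droplets held 31.8 Ckm and 7.18 Ttn in WT and 19.4 Ckm and 3.33 Ttn in the mutant. In kept cells the highest Acta1 levels therefore rested on few droplets. The unnamed cluster led by Car1, in WT, had 311 CPM (263 to 365) from 2 of its 27 cells, and the one led by Igkc, in the mutant, had 250 CPM (217 to 287) from 13 of its 295 cells.

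**Figure D4:**
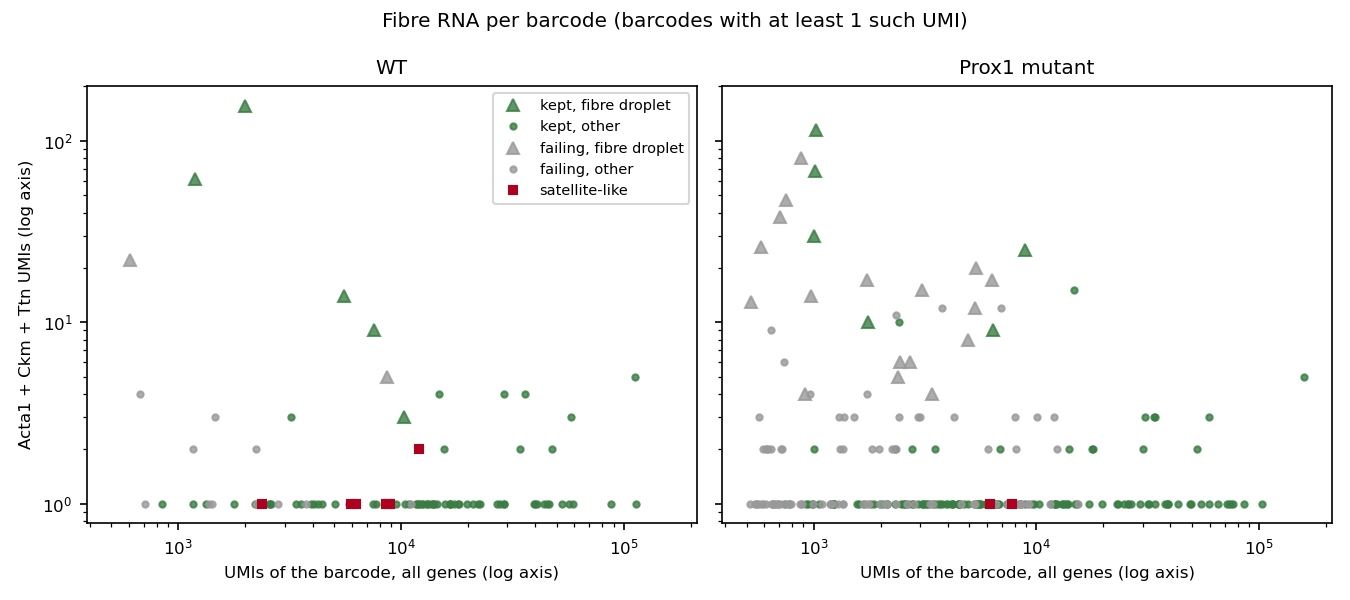
Acta1, Ckm and Ttn UMIs of a barcode (sum, log axis) against all its UMIs (log axis) for barcodes with at least 1 such UMI, WT on the left and the Prox1 mutant on the right; triangles are fibre droplets, green barcodes passed the cell filters, grey ones failed and red squares are satellite-like cells. The highest points, 156 UMIs in WT and 115 in the mutant, are fibre droplets of under 2000 UMIs, and satellite-like cells lie at 1 or 2 UMIs.

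Elsewhere the fibre genes formed a thin background. Over the named cell types other than satellite-like, Acta1, Ckm and Ttn together came to 91 UMIs and 2.87 CPM (2.31 to 3.53) in WT and 121 UMIs and 3.29 CPM (2.73 to 3.93) in the mutant. For this sum the log2 ratio of mutant to WT was 0.20 (-0.21 to 0.60), so at this depth no difference in it was detectable. Without the fibre droplets, an alternative chosen after seeing the data, the sum was 2.05 and 2.61 CPM with a log2 ratio of 0.35. Acta1 alone was then higher in the mutant, with an interval of 1.08 to 1.89 CPM against 0.41 to 1.01 for WT. The intervals of Ckm and of Ttn overlapped. With the wider filter of 200 genes and 20% mitochondrial UMIs the log2 ratio of the sum was 0.64 (0.29 to 1.01). Single genes went opposite ways over all kept cells but satellite-like ones, fibre droplets included. Their log2 ratios were 0.59 (0.33 to 0.85) for Acta1, -0.61 (-1.09 to -0.14) for Ckm and -0.67 (-1.32 to -0.04) for Ttn. Of the 89 WT Ckm UMIs here, 45 came from 1 fibre droplet. Without fibre droplets these WT and mutant cells had Acta1 at 0.566 and 2.09 CPM, Ckm at 0.587 and 0.610 CPM and Ttn at 0.797 and 0.647 CPM. The intervals of Ckm and of Ttn then overlapped, and those of Acta1 did not. In the named types other than satellite-like, 1.76% of the 3072 WT cells had a UMI of any of the 3. Among WT satellite-like cells the share was 7.87%, with an interval that begins at 3.22%. For the mutant the shares were 2.32% (1.84 to 2.87) of 3497 cells and 5.71% of satellite-like cells, and their intervals overlapped.

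Barcodes that failed the filters differed more between the libraries. Those with under 500 genes and at least 10% mitochondrial UMIs, 303 in WT and 379 in the mutant, had Acta1 at 28.2 CPM (12.9 to 53.6) in WT but at 404 CPM (350 to 465) in the mutant. Ckm was at 9.40 CPM (1.94 to 27.5) and 127 CPM (97.9 to 163), and Ttn at 12.5 CPM (3.42 to 32.1) and 32.4 CPM (18.5 to 52.5). Fibre droplets numbered 0 and 12 among these barcodes and held 47.5% of their Acta1 in the mutant. Pax7, Myf5 and Chodl were at 0 in these barcodes of both libraries. Dmd had another pattern: in barcodes with enough genes but a high mitochondrial share its WT level was 1496 CPM and its mutant level 907 CPM. There, 83 WT and 31 mutant droplets with at least 5 Dmd UMIs held 2747 and 1220 of them, and 79 and 29 of these droplets also carried Myh11, the smooth muscle myosin.

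Between the genotypes, few of the 9 genes could be compared within satellite-like cells. A gene was compared where it had at least 50 UMIs over both libraries, and was called where its CPM plus 5 differed at least 2-fold. Of 3304 genes compared, 98 were called higher in the mutant (2.97%) and 147 lower (4.45%), 7.42% in all. Of the 9 genes 4 could be compared (Pax7, Myf5, Chodl and Dmd) and 0 were called, which beside 7.42% of all genes is no result about these 4. A common rescaling by TMM, edgeR's factor for library composition, shifts every log2 ratio by -0.18. It also changes the share of calls that are higher in the mutant from 40.0% to 18.9%.

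The Pax7 level was higher in the mutant, by 0.70 on the log2 scale (0.49 to 0.91). With cells chosen without clusters, by at least 3 of the 8 markers in a cell, the difference was 0.19 (-0.02 to 0.40). That choice added 14 WT and 11 mutant cells, of which 3 and 3 held Pax7 and 4 and 2 were named smooth muscle and pericyte. The deepest added mutant cell had 144816 UMIs, against 250564 in all 35 mutant satellite-like cells together. The part of these added cells in the ratios was not tested. Myf5 had a log2 ratio of -0.55 (-1.13 to -0.0040), Chodl of 0.06 (-0.19 to 0.31) and Myod1, below the count needed, of -0.04 (-1.33 to 1.12). With cells chosen without clusters Myf5 was at -1.06 (-1.62 to -0.54) and Chodl at -0.56 (-0.80 to -0.32). Dmd had a log2 ratio of 0.14 (0.02 to 0.27), which was -0.038 after TMM and -0.51 with cells chosen without clusters. Over all kept cells, by contrast, Pax7 had a log2 ratio of -0.70 (-0.90 to -0.50), Myf5 of -1.94 (-2.49 to -1.43) and Chodl of -1.61 (-1.80 to -1.42). Satellite-like cells made up 0.608% of kept mutant cells and 2.05% of kept WT cells. Chodl also had a log2 ratio of -1.80 (-2.11 to -1.51) in the other kept cells. For Dmd the log2 ratio was 0.07 (0.01 to 0.13) within smooth muscle and pericyte cells, 0.01 (-0.10 to 0.13) within Schwann cells and -0.53 (-0.58 to -0.49) over all kept cells.

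**Figure D5:**
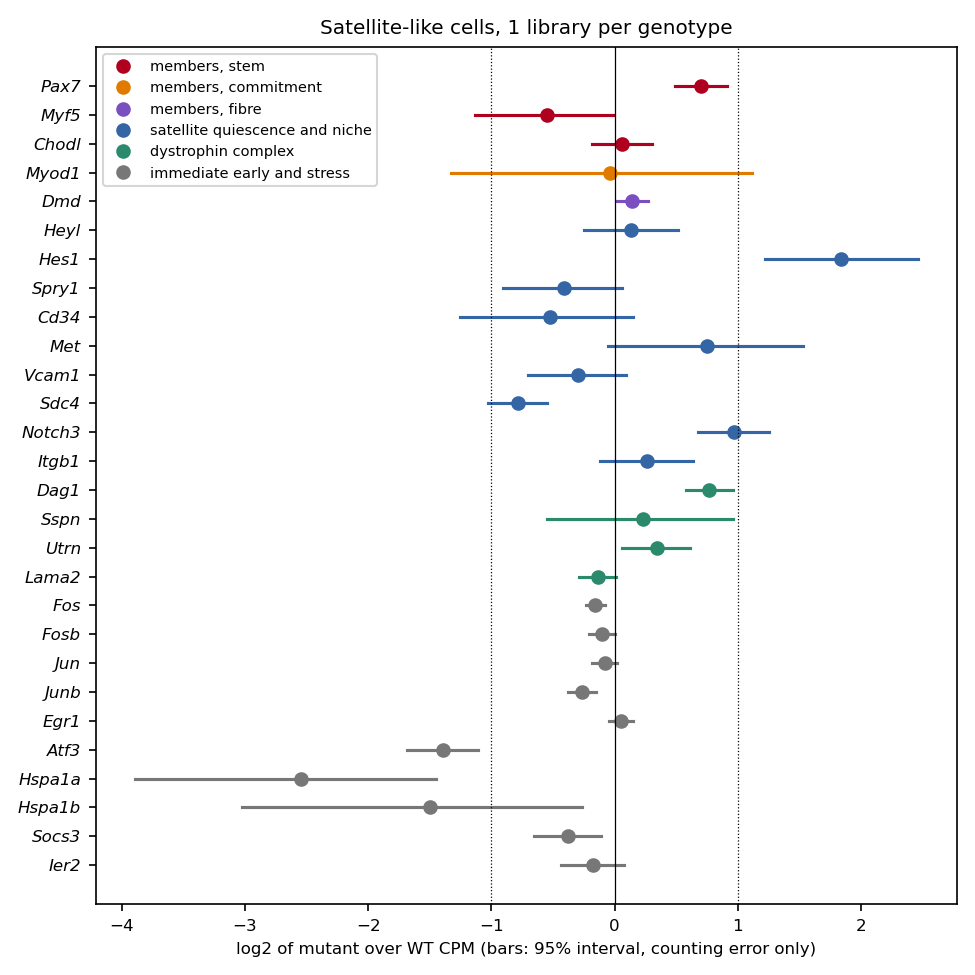
Log2 ratio of mutant to WT CPM in satellite-like cells for the members and the genes of 3 lists with at least 50 UMIs over both libraries, with Myod1 added; bars are 95% intervals that cover counting error only and dotted lines mark 2-fold. Pax7 (0.70), Myf5 (-0.55), Chodl (0.06) and Dmd (0.14) lie inside the lines, and Hes1, Atf3, Hspa1a and Hspa1b lie outside.

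Satellite-like cells were also set against all other kept cells of the same library. Of 13696 genes, 718 were at least 2-fold higher in satellite-like cells of both libraries (5.24%) and 2147 were lower (15.7%). Genes of that set had at least 200 UMIs in all kept cells. Among the 9 genes 5 were higher, namely Pax7, Myf5, Chodl, Myod1 and Dmd, and 0 were lower. Myf5 (137 WT and 40 mutant UMIs) and Myod1 (24 and 20) lie under that minimum. The count among the 9 is therefore not comparable with 5.24%, nor are those of the lists below, which had no such minimum. By construction of the cluster the genes that move with its markers are high in it, so these counts are a description.

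Several genes of quiescence and of the niche, the surroundings that keep stem cells at rest, were high in the same cells. Of 11 such genes 6 were at least 2-fold higher in satellite-like cells of both libraries, among them Heyl, a target of Notch, at 301 and 331 CPM, and Sdc4, a cell surface proteoglycan, at 1226 and 710 CPM. Between genotypes 9 could be compared, with a median log2 ratio of 0.13 against 0.07 over all genes. Of these 1 was called, beside 7.42% of all genes compared. It was Hes1, another Notch target, higher in the mutant, at 220 CPM (165 to 286) against 61.5 CPM (43.96 to 83.8) in WT. Of 10 transcription factors of head and trunk muscle 6 were raised, with Msc at 27.7 and 59.9 CPM and Tbx1 at 9.23 and 7.98 CPM. Pax3, the trunk and limb relative of Pax7, was at 0 in both libraries.

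Genes of later stages were uneven. Of 10 genes of commitment, fusion and new fibre, 4 were at 0 in the satellite-like cells of both libraries: the fusion genes Mymk and Mymx and the embryonic and perinatal myosins Myh3 and Myh8. In the same list Dll1, a Notch ligand, was raised, at 15.4 and 23.9 CPM, and 2 genes could be compared between genotypes (Mef2a and Mef2d), of which 0 were called. Of 20 contractile fibre genes 6 were at 0 and 3 were raised, namely Actn3 at 47.7 and 67.8 CPM, Tnnt1 at 52.3 and 19.96 CPM and Neb at 15.4 and 23.9 CPM. Among the contractile genes only Tpm1, a tropomyosin also used outside muscle, could be compared between genotypes. It was called higher in the mutant, at 247 CPM against 60.0 CPM in WT, as were 2.97% of all genes compared. Of 11 genes of fibre calcium and energy only Atp2a1, the calcium pump, was raised, at 23.1 and 39.9 CPM. All 5 proliferation genes were at least 2-fold lower than in other cells, Mki67 with 12 and 3 UMIs. Those other cells include an erythroid cluster with Mki67 among its leading genes. Any of the 5 was counted in 5 of 89 WT and 6 of 35 mutant satellite-like cells, and at least 3 of their UMIs in 2 and 0.

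The partners of dystrophin were present unevenly. Of 12 genes of the complex 4 were raised in satellite-like cells: Dag1, which encodes dystroglycan, at 891 and 1517 CPM, Lama2, its laminin ligand, at 2158 and 1964 CPM, Sspn at 78.5 and 91.8 CPM and Sgcb at 44.6 and 35.9 CPM. Sgcd, a sarcoglycan, was lower, with 1 UMI in WT and 0 in the mutant. Utrn, the dystrophin relative utrophin, stood at 520 and 659 CPM, with 507 and 417 CPM in other cells. Between genotypes 4 of the 12 could be compared and 0 were called, with a median log2 ratio of 0.28. Of 10 immediate early and stress genes, which tissue digestion is known to induce, 7 were raised in satellite-like cells. All 10 could be compared between genotypes, with a median log2 ratio of -0.22 against 0.07 over all genes. Of these 3 were called lower in the mutant, beside 4.45% of all genes compared. They were Atf3 (1246 and 475 CPM), Hspa1a (163 and 27.9 CPM) and Hspa1b (67.7 and 23.9 CPM). The part of the 10 stress genes in the values of the 9 genes was not tested.

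Marker genes of other cell types in the satellite-like cells were as follows. The 6 erythroid markers reached 149 CPM in WT satellite-like cells and 2638 CPM in mutant ones, against 128301 and 111801 CPM in erythroid cells, and 609 of the 655 mutant UMIs of Hba-a1 came from 1 cell. Gland and airway epithelial markers were at 0 UMIs of 7 genes in WT and at 33 UMIs in the mutant, with 6 genes at 0. The 12 muscle fibre markers, which include Actn3 and Atp2a1, both raised in satellite-like cells, came to 76 UMIs and 117 CPM in WT, with 0 genes at 0. In the mutant they came to 33 UMIs and 132 CPM, with 5 genes at 0. Mesenchymal markers came to 1334 and 974 CPM and neutrophil markers to 360 and 571 CPM. Smooth muscle and pericyte markers came to 977 and 1201 CPM, of which Notch3, listed for the niche too, gave 360 and 702 CPM. Their part in the values of the 9 genes was not tested.

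By the size of the ratio, the 5 genes highest in mutant satellite-like cells were 4 haemoglobin genes (Hba-a2, Hbb-bs, Hbb-bt and Hba-a1) and Dctn4. The 5 lowest were Rpl29, Gm17167, Ldb2, Ccl4 and Igfbp3. Rpl29 was counted 484 times in WT and 4 times in the mutant, and was at 575 and 14.1 CPM in all other cells too. Single cells held 63 of the 64 WT UMIs of Ccl4, all 60 of Igfbp3 and 30 of the 58 of Ldb2. Single mutant cells likewise held 462 of the 502 mutant UMIs of Hba-a2, 1256 of the 1379 of Hbb-bs, 229 of the 257 of Hbb-bt and 609 of the 655 of Hba-a1.

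The genes whose pattern over 30 profiles of cell type and library was most like that of Pax7 were Calcr (Pearson r = 0.986), Chrdl2 (0.982), Fgfr4 (0.979), Mybpc1 (0.969) and Nppc (0.961), among 13696 genes. Calcr, Chrdl2 and Fgfr4 are satellite markers used to name the cluster. The profiles share 2 libraries, and the correlations are descriptions. Those most like Acta1 were Gm4841 (0.779), B3galnt1 (0.749), Aox1 (0.691), Irgm1 (0.684) and Itpkc (0.669). The closest of these had a lower correlation than any of the 5 named for Pax7. The profiles cover named types only, so the unnamed clusters with the highest Acta1 levels were left out. In the profiles used Acta1 was near its floor, and its highest level, 7.98 CPM, rested on 2 UMIs from mutant satellite-like cells. Mutant neutrophils had 29 Acta1 UMIs, of which 24 came from 1 droplet. With so few UMIs the Acta1 correlations cannot show a shared pattern.

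Prox1, a transcription factor of lymphatic endothelium that is also known in muscle, was counted in satellite-like cells as well. They held 203 of 563 Prox1 UMIs of kept WT cells (36.1%) and 122 of 315 in the mutant (38.7%). Within them its log2 ratio of mutant to WT was 0.64 (0.30 to 0.97), and over all other cells -1.08 (-1.34 to -0.82). The latter pools types whose numbers differed between the libraries. Endothelial cells, 771 in WT and 376 in the mutant, held 290 and 118 Prox1 UMIs, and within them the ratio was -0.62 (-0.94 to -0.30). It was 0.21 (-0.64 to 1.05) within smooth muscle and pericyte cells and 0.66 (-1.61 to 2.73) within Schwann cells. Differences between these ratios were not tested.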

How the data were processed

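The scRNA-seq files hold raw UMI counts per gene and barcode, which the authors made with Cell Ranger 7.0.1 on GRCm38 (mm10) and deposited without normalization. Whether intronic reads were counted or doublets removed is not stated. The sample records name a 3' v2 kit and the paper another version. The libraries held 53517206 UMIs over 5709 barcodes (WT) and 62446987 over 7846 (mutant), and 10 barcodes occurred in both.

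The study's cell filters were applied, a minimum of 500 genes and a mitochondrial share below 10%. SCTransform, anchor integration (3000 features, the 9 genes left out), 200 principal components and resolution 1.5 were run in Seurat 5.3.0 with R 4.3.3 and sctransform 0.4.2. A marker was raised when its CPM plus 5 was at least 2-fold that of other cells and it was counted in 10% of the cells of the cluster. A name needed 3 raised markers and at least 2 of the type's markers among the 50 leading genes of the cluster. It was withheld where markers of another type led, and in shallow clusters where none of the type's own markers led. The 9 genes, the lists and the rules were chosen with earlier results of these data known.

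UMIs were summed per cell type and library. Intervals are exact Poisson for CPM, Clopper-Pearson for shares, Newcombe for differences of shares and exact conditional for ratios, computed with scipy 1.17.1 in Python 3.11.15. UMIs remove most PCR copies, and intervals and limits cover counting error only. A gene at 0 was given a limit of 3 UMIs. Cells of at least 2000 UMIs were thinned to that depth by random draws, which omits shallower ones (4 WT and 0 mutant satellite-like cells). Scrublet (scanpy 1.11.5) called 0 doublets by its automatic threshold, so none were removed, and removal by score at a fixed rate was an alternative. Ratio calculations were tested on simulated Poisson counts, which hold no spread between cells, so that test covers the calculation only. Named genes are the 9, those of the lists, the 5 most like Pax7 and Acta1 (Pearson, log2 of CPM plus 5, genes with at least 200 UMIs) and the 5 highest and 5 lowest ratios. Sequences come from RefSeq and positions from GENCODE M21. One gene of the lists is not reported here.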

Additional observations from a re-analysis of the deposited data

Results flagged for a closer look

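Dmd was flagged because its ratio of mutant to WT had opposite signs in 2 populations. The log2 ratio was 0.14 in satellite-like cells and -0.43 (-0.47 to -0.39) in all other kept cells, where its WT level was 188 CPM and its mutant level 139 CPM. In satellite-like cells the sign turned after TMM scaling, to -0.038. With cells chosen without clusters the ratio was -0.51, but few of the cells which that choice added held Pax7. The difference between the ratios was not tested, and within smooth muscle and pericyte cells and within Schwann cells the ratios were 0.07 and 0.01.

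Acta1 and Ckm were flagged in barcodes that the comparisons of cells do not use. In barcodes with under 500 genes and at least 10% mitochondrial UMIs, Acta1 was at 404 CPM in the mutant and 28.2 CPM in WT, and Ckm at 127 CPM and 9.40 CPM. These levels rested on 200 Acta1 and 63 Ckm UMIs in the mutant and on 9 and 3 in WT. In the mutant, 95 of the 200 and 27 of the 63 lay in 12 fibre droplets.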

How the results depend on the processing

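With cells chosen by 3 satellite markers and no clusters (96 WT and 46 mutant cells, of which 82 and 35 were also satellite-like), the log2 ratio of Dmd between genotypes was -0.51. That of the stem genes between the chosen and other cells was 6.77 in WT and 8.34 in the mutant. Of 5880 genes then compared 845 passed 2-fold, 384 higher and 461 lower, which is 14.4% against 7.42% of 3304 in the main clustering. The 14 WT and 11 mutant cells found by markers alone had medians of 29750.5 and 21565 UMIs, and 3 and 3 of them held Pax7. With TMM scaling, chosen for the 9 genes after seeing the data, Dmd was at -0.038, and 54 genes were higher and 231 lower. With a minimum of 20 UMIs 650 of 6153 genes passed (287 higher, 363 lower), 10.6%. With 200 UMIs 44 of 737 passed (18 higher, 26 lower), 5.97%, as other numbers of genes were then compared. With the highest Scrublet scores removed the stem gene ratio in WT was 8.40. With the droplet richest in the 3 stem genes together left out on either side, that ratio was 7.99 in WT and 9.77 in the mutant. With the richest droplet of each gene left out in each library, 51 of 2892 genes were higher and 174 lower. The UMI totals used for CPM were left unchanged. With the filter of 200 genes and 20% mitochondrial UMIs the ratio of fibre RNA in other cell types was 0.64. Except where an alternative compares fewer or more genes, the cause was not tested. The difference in the satellite-like share lay between -1.82 and -1.24 percentage points in all 9 alternatives run for it. Counted as pairs of a result and an alternative setting, there were 137, of which 114 stayed within the main value's interval or 1.5 times its count. Another 21 moved outside it and 2, both of Dmd, turned in sign. The settings were not independent, and resolution 0.5 again gave 89 WT and 35 mutant satellite-like cells. No paired analysis was possible because each genotype has 1 library, and for the same reason no library could be left out.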

Other observations

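Pax7 was counted 4 times in WT and 3 times in mutant barcodes that failed the cell filters, all in barcodes with at least 500 genes and a mitochondrial share of 10% or more. Chodl was counted there 5 times in WT and 0 times in the mutant, and Myf5 0 times in both.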
